A study of Mus musculus with 22 samples.

Results

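This experiment asked which liver genes respond within 30 min when growth hormone (GH) is given to female mice that have none of their own. Its members are the 2 dye-swapped arrays, of 22 in the series, that compared liver RNA of Hypox females killed 30 min after 1 GH injection with liver RNA of untreated Hypox females, as chosen by the labels of both channels. Hypox mice are hypophysectomised: the pituitary, which makes GH and several other hormones, had been removed in adulthood. All mice of both groups were ICR females aged 8 weeks, so both groups lack the pituitary and differ by the injection. The labels do not say whether the untreated Hypox mice received a vehicle injection. Array 1 compared a pool of 4 GH-treated mice (green dye) with a pool of 3 untreated mice (red dye). Array 2 compared a pool of 3 with a pool of 3, with the dyes exchanged. The deposited value table numbers the arrays of this pair the other way round, so the pool sizes may belong to the other array, while the direction of each ratio is unaffected. Both GH pools together hold as many mice as the group of 7, and both untreated pools 6 of 7. A value is therefore an average over the mice of a pool, and p-values measure the spread between arrays, not between mice. In these bulk samples, fewer cells of a type and less RNA per cell cannot be told apart.

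GH binds its receptor on hepatocytes and activates the kinase JAK2, which phosphorylates the transcription factor STAT5. STAT5 enters the nucleus within minutes and turns on genes such as the SOCS genes, whose proteins dampen the same pathway, and more slowly Igf1, the main mediator of growth. GH also acts against insulin on liver sugar and fat metabolism, and the timing of its pulses sets many differences between male and female liver.

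On the 2 arrays, between 70.9% and 76.8% of spots in a channel were well above background, and no spot was saturated. On at least 1 of these arrays, 2 of the 26191 genes tested had no usable spot left. All 9 hepatocyte markers tested, among them the secreted proteins Alb, Apoa1 and Ttr, were well above background in all 4 pools. Each log2 ratio below is GH over untreated, so 1 is a doubling, given for each array and as the mean of 2 arrays ± SE. The SE and the p-value come from a limma model fitted to all 22 arrays, and p-values are adjusted by the Benjamini-Hochberg method over all genes. Called genes are those with an adjusted p under 0.05 whose 2 ratios also have the same sign.

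Few genes passed the test at 30 min, and the largest ratios were increases. Of the 4 highest mean ratios, 3 belonged to Phlda1, a regulator of cell survival (3.31 ± 0.50), and to the STAT5-induced inhibitors Socs2 (2.97 ± 0.39) and Cish (2.88 ± 0.68), which is a 7.35-fold to 9.90-fold difference in level. limma called 5 genes (0.0191% of those tested), 3 higher (0.0115%) and 2 lower (0.00764%) after GH, and 1978 had an unadjusted p under 0.05. At an adjusted p under 0.1 there were 18 genes, 10 higher and 8 lower. As a description without a test, 82 genes (0.313%) were at least 1.5-fold higher on both arrays and 79 (0.302%) at least 1.5-fold lower, of which 36 and 41 have a gene symbol. At 2-fold, 26 genes were higher on both arrays and 14 lower. Going opposite ways past 1.5-fold were 44 genes, and the correlation of both arrays across genes was r = 0.295, where genes are not independent replicates.

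**Figure D1:**
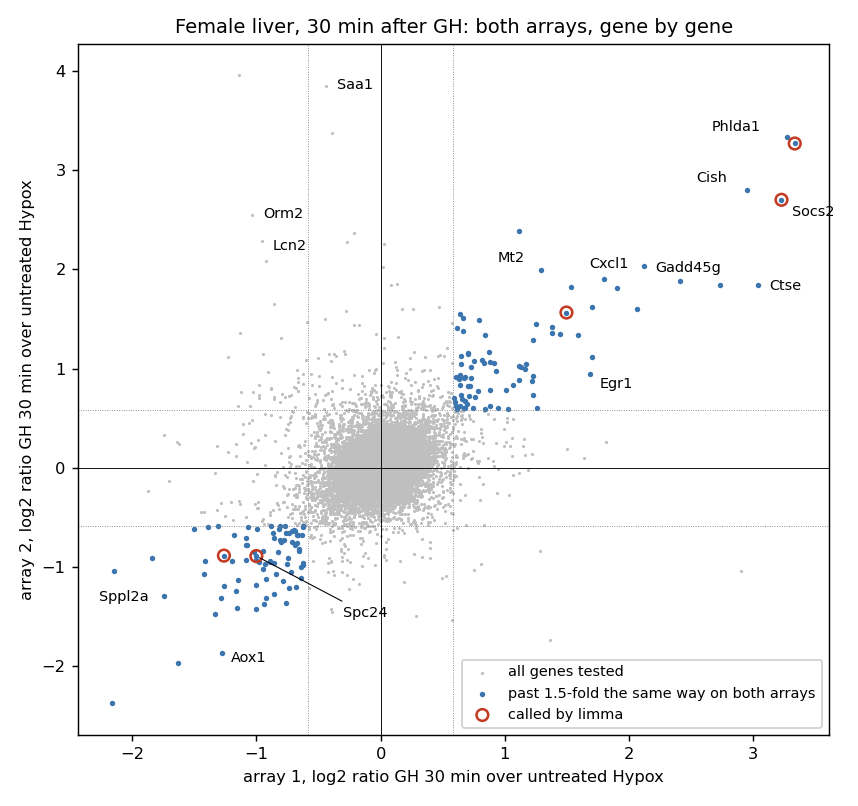
Each point is 1 gene, with its log2 ratio of GH over untreated Hypox on array 1 (x axis) and array 2 (y axis). Red rings mark the 5 called genes, blue points the 82 and 79 genes past 1.5-fold (dotted lines) the same way on both arrays. Phlda1, Socs2 and Cish lie apart at the upper right, and Saa1, Orm2 and Lcn2 are high on array 2 alone.

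The SOCS family held the clearest response, and within it 3 members stood apart from the other 5. Socs2, an inhibitor that limits GH receptor signalling, had log2 levels of 12.74 and 12.10 in the GH pools of arrays 1 and 2, against 9.52 and 9.40 in the untreated pools. Both GH pools lay above both untreated pools, and Socs2 rose by 7.81-fold (log2 ratios 3.23 and 2.70; mean 2.97 ± 0.39, limma adjusted p = 0.0269). The call held under 13 of 18 other ways of processing the data. It was lost, for example, without background correction (adjusted p = 0.0611) and with each array centred on its median in place of loess (0.0893), with log2 ratios of 2.62 and 2.97. Leaving out array 1 gave 2.48 (adjusted p = 1.00) and leaving out array 2 gave 3.45 (0.423).

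Cish, an inhibitor that competes with STAT5 for docking sites, had levels of 11.21 and 11.05 in the GH pools and 8.26 and 8.25 in the untreated pools. Its log2 ratios of 2.95 and 2.80 are nearly equal, but its SE of 0.68 is estimated over arrays of other comparisons too, and limma did not call it (mean 2.88, adjusted p = 0.255). Cish passed under 3 of 18 other ways of processing. Among them was the fit without the arrays of sham-operated mice, where the SE was 0.18 (adjusted p = 2.77e-04). Socs3, an inhibitor best known from cytokine signalling, was at 13.41 and 13.65 after GH and at 11.88 and 11.83 without it. Its ratios were 1.53 and 1.82 (mean 1.68 ± 0.63, adjusted p = 0.555). For Cish and Socs3 as for Socs2 the GH and untreated pools did not overlap. The share of all genes with such separate pools was not counted, for these or for genes named elsewhere. It is a description that adds no support to large ratios on both arrays. The other 5 members, Socs1, Socs4, Socs5, Socs6 and Socs7, had mean log2 ratios between 0.03 and 0.17. The family counted 1 of 8 members called higher and 3 of 8 past 1.5-fold higher, with a median of 0.16, against a median of 0.00 over all genes.

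The 250 bases before the gene starts of Cish and Socs3, from RefSeq on build GRCm38.p6, are shown because STAT5 dimers bind the letters TTCNNNGAA, where N is any base. The motif reads the same on both strands. Capitals mark a match. Socs2 has no entry in the promoter table used here.
Cish, chr9:107296409-107296658, plus strand: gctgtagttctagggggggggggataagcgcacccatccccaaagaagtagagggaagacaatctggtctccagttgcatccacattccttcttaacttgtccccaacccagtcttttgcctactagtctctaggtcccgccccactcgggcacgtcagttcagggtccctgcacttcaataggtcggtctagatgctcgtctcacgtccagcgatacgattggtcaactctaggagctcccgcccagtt
Socs3, chr11:117969367-117969616, minus strand: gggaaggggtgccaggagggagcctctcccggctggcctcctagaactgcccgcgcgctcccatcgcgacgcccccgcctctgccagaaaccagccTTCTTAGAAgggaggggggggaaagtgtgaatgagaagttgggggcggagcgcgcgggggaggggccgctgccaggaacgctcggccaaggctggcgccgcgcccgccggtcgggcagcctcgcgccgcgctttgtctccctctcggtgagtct
Socs3 has 1 match, TTCTTAGAA, from 154 to 146 bases before the gene start. Cish has none in this window. Of 27025 promoter windows of this length in the table, 7.18% hold the motif, and 6.31% of the 10988 windows of tested genes. It was present in 2 of 30 genes past 1.5-fold higher that have an entry (6.67%) and in 2 of 32 past 1.5-fold lower (6.25%). The shares of both groups lie close to that of all tested genes.

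No other known target of GH and STAT5 passed the test at 30 min. Igf1 was at 14.81 and 14.72 after GH and at 14.38 and 14.43 without it, so the GH pools lay slightly above (ratios 0.43 and 0.29; mean 0.36 ± 0.16, adjusted p = 0.657). Igfals, which stabilises IGF1 in blood, had ratios of 0.23 and 0.36 (mean 0.30 ± 0.10, adjusted p = 0.494). Pim1, a kinase gene induced by STAT5, was at 0.48 and 0.53 (adjusted p = 0.759). The receptor gene Ghr was at 0.17 and 0.36 (adjusted p = 0.471), the repressor Bcl6 at 0.10 and -0.51, the female-specific repressor Cux2 at -0.06 and -0.04, and Onecut1, a liver transcription factor, at -0.09 and 0.05. Of 13 GH and STAT5 targets, 1 was called and 3 were past 1.5-fold higher, all of them SOCS family members, with a list median of 0.26. None of 12 IGF1 axis genes was called or past 1.5-fold (median 0.11), and likewise none of 29 genes for the JAK kinases, STAT factors and their partners (median 0.05, mean ratios between -0.16 and 0.30). Among them Jak2 was at 0.10 and 0.09, Stat5a at 0.19 and -0.33, and Stat5b at 0.39 and -0.25.

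Immediate-early genes, which many stimuli switch on without new protein synthesis, held a few members with high ratios and many near 0. Phlda1 had levels of 15.57 and 15.34 in the GH pools and 12.29 and 12.005 in the untreated pools. Its ratios of 3.28 and 3.34 were the highest mean of any gene, yet with an SE of 0.50 it narrowly missed the threshold (adjusted p = 0.0548), and it passed under 5 of 18 other ways of processing. Gadd45g, a stress sensor that slows the cell cycle, was at 14.997 and 15.01 after GH and at 12.87 and 12.98 without it (ratios 2.12 and 2.03; mean 2.08 ± 0.59, adjusted p = 0.356). It passed under 2 of 18 other ways of processing, among them the fit without the sham arrays (adjusted p = 0.0158). Egr1, a zinc finger transcription factor, was at 12.46 and 11.71 after GH and at 10.78 and 10.77 without it (1.32 ± 0.38, adjusted p = 0.381). For these 3 genes both GH pools lay above both untreated pools.

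Nr4a1, an orphan nuclear receptor, went the other way, at 14.41 and 14.44 after GH and 15.56 and 15.58 without it (ratios -1.15 and -1.13; mean -1.14 ± 0.47, adjusted p = 0.610). Fos, usually among the first to respond, was at 0.67 and 0.12, past 1.5-fold on array 1 alone. Others lay close to 0, with Junb at -0.10 and 0.14, Ier2 at 0.18 and 0.18, and Dusp1 at -0.05 and -0.16. Fos was printed 10 times on each array, and those spots spanned 0.63 to 0.71 on array 1 and 0.06 to 0.17 on array 2, so the arrays differed by more than the spots did. Myc, a growth regulator, was at 0.46 and 0.80 (0.63 ± 0.53, adjusted p = 0.890). Of 39 immediate-early genes tested, none was called, 3 were past 1.5-fold higher and 1 lower, with a median of 0.09.

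The window before the Gadd45g start is shown because Gadd45g is the highest immediate-early gene with an entry. Phlda1 and Egr1 have none.
Gadd45g, chr13:51846425-51846674, plus strand: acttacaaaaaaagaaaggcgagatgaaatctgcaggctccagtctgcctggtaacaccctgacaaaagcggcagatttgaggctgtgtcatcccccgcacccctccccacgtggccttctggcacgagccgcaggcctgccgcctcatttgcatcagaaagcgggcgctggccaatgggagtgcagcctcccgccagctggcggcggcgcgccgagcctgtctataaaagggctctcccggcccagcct
It holds neither TTCNNNGAA nor the motif searched in Cxcl1 below.

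**Figure D2:**
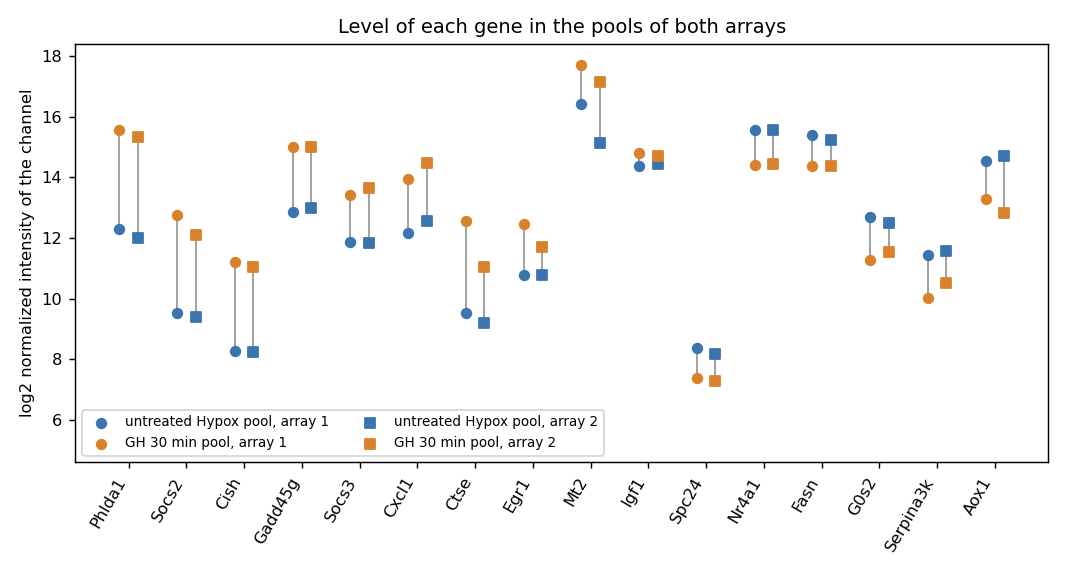
Log2 normalized intensity of 16 genes in the GH pool (orange) and the untreated Hypox pool (blue) of array 1 (circles) and array 2 (squares), joined within each array. Levels can be compared between pools of 1 gene, not between genes. In Socs2, Cish and Phlda1 both GH pools lie far above both untreated pools, and in Spc24 and Fasn below them.

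Of the 5 called genes, 3 have no symbol in the RefSeq table and keep the accession printed on the array. AK050118 rose by 9.86-fold, with GH pools at 13.08 and 12.94 and untreated pools at 9.74 and 9.67 (3.30 ± 0.44, adjusted p = 0.0269). AK038031 rose by 2.89-fold, from 9.55 and 9.65 to 11.05 and 11.21 (1.53 ± 0.13, adjusted p = 0.00109). AK080374 fell, from 9.61 and 9.41 to 8.35 and 8.53 (-1.07 ± 0.14, adjusted p = 0.0269). The call held under 15 of 18 other ways of processing for AK050118 and AK038031 and under 12 for AK080374, which lost it with median centring (0.0721), without background correction (0.0611), without the dye term (0.0902) and with the replicate block (0.0585). AK050118 also lost it with the replicate block (0.0585), AK038031 with median centring (0.0721), and all 3 when either array was left out. None of their pools overlapped between GH and untreated, a separation that was not counted over all genes. Transcripts without a symbol were 46 of the 82 genes past 1.5-fold higher and 38 of the 79 past 1.5-fold lower. They were common on the array as a whole, where 13760 of the 26191 genes tested have a symbol.

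Spc24 was the only named gene called lower. It encodes a subunit of the NDC80 complex, which attaches chromosomes to the spindle. It was at 7.37 and 7.28 after GH and at 8.37 and 8.17 without it, a fall of 1.93-fold at low intensity (ratios -1.0 and -0.89; mean -0.94 ± 0.10, adjusted p = 0.00622), and the call held under 16 of 18 other ways of processing, all but those leaving out 1 array. Its size depended on background handling, at -0.45 without background correction and -1.40 with the scanner's ratio. The other subunits of the complex did not share it: Spc25 was at 0.31 and 0.13, Ndc80 at 0.16 and 0.20, and Nuf2 at -0.01 and 0.07. Of 31 genes of kinetochore and mitosis, 1 was called lower and 2 were past 1.5-fold lower, the other being the cell cycle inhibitor Cdkn1a (-0.67 and -0.68), and the list median was 0.06.

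Genes of fat synthesis lay below 0 as a list. Fasn, which builds fatty acids, was at 14.39 and 14.38 after GH and at 15.41 and 15.23 without it (ratios -1.02 and -0.85; mean -0.93 ± 0.16, adjusted p = 0.102). Thrsp, a lipogenic regulator, was at 11.36 and 12.10 against 12.75 and 12.69 (-0.99 ± 0.23, adjusted p = 0.240), and Elovl6, which lengthens fatty acids, at 13.57 and 13.68 against 14.20 and 14.27 (-0.61 ± 0.20, adjusted p = 0.475). In each of these 3 genes both GH pools lay below both untreated pools. Srebf1, the transcription factor that drives this programme, was at -0.68 and -0.29 (-0.49 ± 0.22, adjusted p = 0.660), and Acly at -0.36 and -0.06. Both arrays were below 0 for 11 of 14 lipogenesis genes and above 0 for none, where 26.9% and 27.6% of all genes were. None of the 14 was called, 3 were past 1.5-fold lower, and all 14 mean ratios were negative (median -0.24, between -0.99 and -0.03).

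Among genes of hepatic glucose storage, Ppp1r3b, a glycogen-targeting phosphatase subunit, was at 11.68 and 11.69 against 12.62 and 12.53 (-0.89 ± 0.26, adjusted p = 0.381). For the gluconeogenic genes the arrays lay farther apart, with Pck1 at -0.29 and 1.15 and G6pc at -0.76 and -0.10. G0s2, an inhibitor of fat breakdown, was at 11.27 and 11.54 after GH and at 12.69 and 12.49 without it (-1.18 ± 0.28, adjusted p = 0.254). Of 12 genes of gluconeogenesis and glycogen none was called, and the median was -0.10. The medians of 19 cholesterol synthesis genes (-0.06) and 20 PPAR alpha targets (-0.11) were also close to that of all genes, with none past 1.5-fold on both arrays. The same held for 18 circadian clock genes (median -0.12), 16 genes of endoplasmic reticulum stress (-0.09), 11 heat shock genes (0.00) and 11 bile acid genes (-0.02). None of 12 insulin and FOXO responsive genes was called (median 0.03).

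Several liver genes had lower levels after GH on both arrays without passing the test. Serpina3k, a secreted protease inhibitor, was at 10.01 and 10.50 against 11.44 and 11.57 (-1.25 ± 0.29, adjusted p = 0.251), and a further probe gave -1.42 and -1.0. Aox1, an aldehyde oxidase, was at 13.28 and 12.82 against 14.55 and 14.69 (-1.57 ± 0.38, adjusted p = 0.266). Sult3a1, a female-biased sulfotransferase of low signal, gave -1.33 and -1.47 but was well above background in only 1 of the GH pools, and its mean moved between -0.51 without background correction and -3.53 with the scanner's ratio. As a list, 25 female-biased liver genes had a median of 0.13 with none called, and 15 male-biased genes a median of 0.01 with 1 past 1.5-fold lower, Nat8 (-0.75 and -0.97). Among the other lowest genes were the protease Sppl2a (-1.75 and -1.29), the calpain Capn3 (-1.28 and -1.32), the glucose transporter Slc2a4 (-1.16 and -1.41), BC016579 (-1.0 and -0.93) and the transcription factor Bhlha15 (-1.19 and -0.94), for which another probe gave 0.07 and -0.03. Their adjusted p-values lay between 0.237 and 0.701.

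Among genes with higher levels, Ctse, an intracellular aspartic protease, was at 12.57 and 11.03 after GH and at 9.53 and 9.19 without it (ratios 3.04 and 1.84; 2.44 ± 0.35, adjusted p = 0.0546). The metallothioneins, which bind zinc and copper, were higher as well: Mt2 at 17.70 and 17.15 against 16.41 and 15.15 (1.65 ± 0.40, adjusted p = 0.266), and Mt1 with ratios of 0.84 and 1.34 (adjusted p = 0.480). Probes of these 2 related genes may share signal. The rest of the glucocorticoid target list did not follow, with Fkbp5 at 0.08 and -0.03 and Tsc22d3 at -0.43 and -0.09, and its median was 0.00. Xlr3c (1.91 and 1.81) and Xlr4b (1.70 and 1.62) belong to X-linked families of near-identical copies and cannot be told from their relatives by these probes. Further probes of Xlr4b gave 0.79 to 1.31. The lectin Clec2d (1.70 and 1.12) and Tmsb15l (1.59 and 1.34) complete the highest genes, with adjusted p-values between 0.485 and 0.557.

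**Figure D3:**
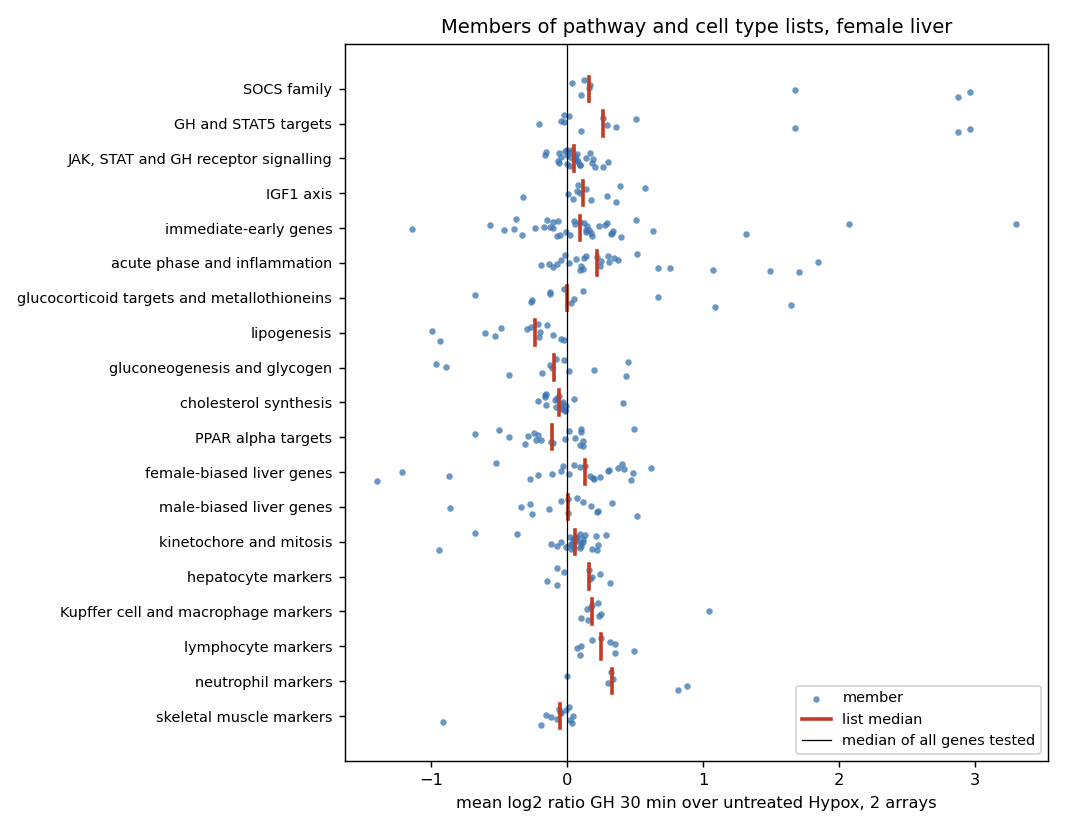
Mean log2 ratio of the 2 arrays for each member (blue points) of 19 gene lists, with each list's median (red) and the median of all genes tested (black line). Lipogenesis members lie to the left of 0 without exception, whereas the SOCS family and immediate-early lists have a few members far to the right and the rest near 0.

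Among genes of the acute phase and inflammation list, Cxcl1 alone was past 1.5-fold higher on both arrays, and several others were high on array 2 alone. Of its 27 members, 12 were above 0 on both arrays and 1 below, where 27.6% and 26.9% of all genes were. Cxcl1, a chemokine that attracts neutrophils, was at 13.95 and 14.48 in the GH pools and at 12.15 and 12.57 in the untreated pools, which do not overlap (ratios 1.80 and 1.90; 1.85 ± 0.73, adjusted p = 0.588). Its window is shown for a match, in capitals, to a form of the NF-kB motif with any base allowed at its centre, searched on both strands.
Cxcl1, chr5:90890995-90891244, plus strand: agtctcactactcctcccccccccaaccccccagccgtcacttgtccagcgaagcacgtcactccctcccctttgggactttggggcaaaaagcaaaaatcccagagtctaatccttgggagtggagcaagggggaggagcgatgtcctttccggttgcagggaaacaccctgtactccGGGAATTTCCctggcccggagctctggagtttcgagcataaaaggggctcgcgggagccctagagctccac
The match lies 71 to 62 bases before the gene start. The motif is in 0.337% of all windows, 0.391% of those of tested genes, 1 of the 30 past 1.5-fold higher (Cxcl1) and 0 of the 32 lower. Of other genes of that pathway, Nfkbia (0.04 and 0.09) and Tnfaip3 (0.14 and 0.10) lay near 0, and Cxcl2 was at 0.25 and 0.36. Elsewhere in the list, Ccl2 was at 0.37 and 0.38 and Cebpd at 0.53 and 0.49.

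The acute phase proteins, which the liver secretes in inflammation, differed between the arrays. Saa1, a serum amyloid gene, was at 13.80 in the GH pool of array 1 and at 17.25 in that of array 2, against 14.23 and 13.40 in the untreated pools, giving ratios of -0.44 and 3.85 (1.71 ± 1.28, adjusted p = 0.855). Saa2 (-0.39 and 3.38), Saa3 (-0.22 and 2.37), Orm2 (-1.03 and 2.55), Lcn2 (-0.95 and 2.29) and Hp (-0.95 and 1.14) were likewise below 0 on array 1 and above it on array 2. Of 27 acute phase and inflammation genes, 14 showed that order of signs, against 24.9% of all genes. The list had 1 member past 1.5-fold higher on both arrays (Cxcl1) and medians of -0.11 on array 1 and 0.36 on array 2. On the direct arrays of GH-treated males over GH-treated females, Saa1 was at 2.72 on array 1 and -4.10 on array 2. Pool, slide and dye orientation differ together between both arrays, and their parts in these values cannot be told apart from 2 arrays.

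Genes that went opposite ways past 1.5-fold were of 2 kinds by the dye term of the model, which is estimated over all 22 arrays. In 38 of the 44 genes array 1 was lower and array 2 higher, and in 6 the reverse. A dye effect passed the test in 28 of the 44, against 11.0% of all genes tested, but opposite signs on dye-swapped arrays enter that term and raise the count. One example is Fbp1 (-1.12 and 0.76; dye term 0.62 ± 0.04, adjusted p = 4.9e-07), a gluconeogenic enzyme whose SE for the GH ratio was 0.12. The dye effect did not pass for Orm2 (adjusted p = 0.428), Lcn2 (0.666) or Wfdc21, a secreted inhibitor named after its values were seen (-1.14 and 3.96; adjusted p = 0.140), nor for Saa1 (0.337). It did pass for Hp (adjusted p = 0.0291), Fgb (3.7e-05), Fgg (1.1e-05) and Hamp (1.6e-05). In all, 4 of the 27 acute phase and inflammation genes had a dye effect, against 11.0% of all genes tested. The neutrophil genes S100a8 (0.57 and 1.06) and S100a9 (0.64 and 1.12) were also higher on array 2. Of 9 neutrophil markers, 6 could be tested (median 0.33, 1 past 1.5-fold higher), and their summed log2 level was 11.80 and 12.3 in the GH pools against 11.28 and 11.36 in the untreated ones. Their part in the acute phase and Cxcl1 values was not tested.

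**Figure D4:**
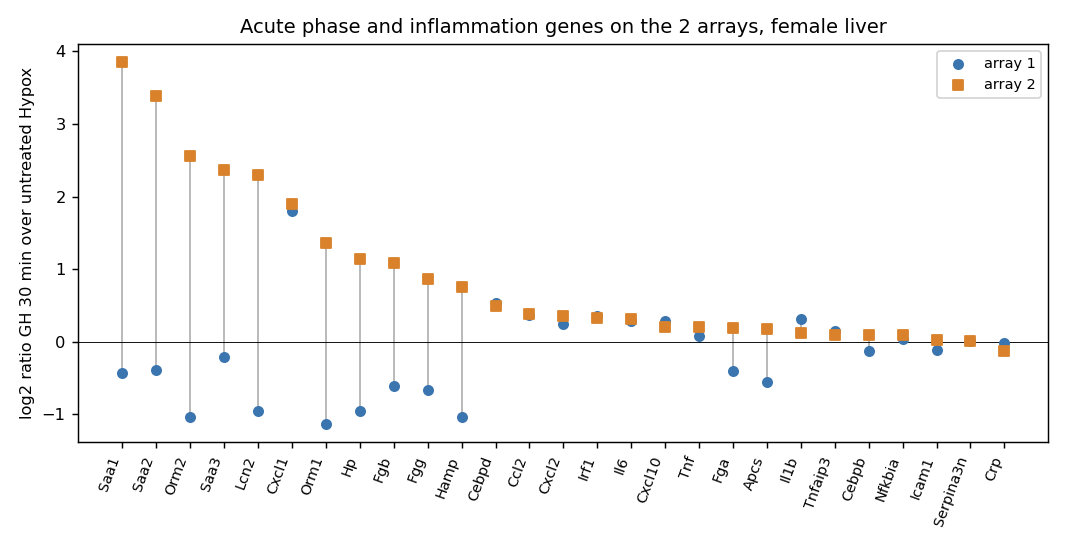
Log2 ratio of GH over untreated Hypox for 27 acute phase and inflammation genes on array 1 (circles) and array 2 (squares), ordered by array 2. Saa1 spans -0.44 to 3.85 while Cxcl1 lies at 1.80 and 1.90.

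No marker list of another cell type had a called member. The median ratio was 0.18 for 9 Kupffer cell and macrophage markers, 0.25 for 9 lymphocyte markers, 0.03 for 10 endothelial, -0.04 for 10 stellate and -0.05 for 8 cholangiocyte markers, with none past 1.5-fold on both arrays. Among the Kupffer cell markers 7 of 9 were above 0 on both arrays and none below, and Marco, a macrophage scavenger receptor, was at 0.47 and 1.62. All 9 lymphocyte markers were above 0 on both arrays, where 27.6% of all genes were. Their summed log2 level was 11.49 and 11.41 in the GH pools and 11.19 and 11.10 in the untreated pools. Skeletal muscle markers had a median of -0.05 and a summed log2 level between 10.89 and 11.05 in the 4 pools, and Ckm and Mb were not well above background in any of them. The medians of 9 exocrine pancreas (-0.03) and 7 adipocyte markers (0.01) were near 0. Of 7 red blood cell markers 3 could be tested, with a median of 0.04. The haemoglobin gene Hba-a1 was at 0.58 and 0.52, and Hbb-bt, a haemoglobin gene outside the list that was named after its values were seen, at 0.75 and 0.60. The summed log2 level of the list was 15.58 and 15.33 in the GH pools and 15.17 and 14.97 in the untreated pools. Myh4, a myosin of fast muscle, was not well above background in the GH pools, and its 2 probes gave mean ratios of -0.92 and -0.28.

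The same injection in Hypox males, measured on 2 arrays with other mice, shared several of the leading genes. limma called 656 genes (2.50%) in males. Phlda1 was at 3.02 (adjusted p = 0.0170), Gadd45g at 2.47 (0.0472), Socs2 at 2.22 (0.0197), Cish at 2.19 (0.104) and Socs3 at 1.54 (0.214). Of the 82 genes past 1.5-fold higher in females, 24 were so on both male arrays, as were 1.13% of all genes, and 14 (17.1%) were called higher in males, as were 1.78% of all genes, which is 3.00% of the 467 genes called higher there. Among the 79 lower genes, 5 were past 1.5-fold lower on both male arrays and 3 were called lower, where 0.290% and 0.722% of all genes were. Read the other way, the 467 genes called higher in males had a median of 0.58 there and 0.05 in females, with 193 (41.3%) above 0 on both female arrays and 78 (16.7%) below, where 27.6% and 26.9% of all genes were. The 189 called lower in males had medians of -0.40 and -0.04, with 72 (38.1%) below 0 on both female arrays and 46 (24.3%) above.

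Tested directly, the female response differed from the male response for 2 genes (0.00764%), while 3068 had an unadjusted p under 0.05. Tmpo, a protein of the inner nuclear membrane, was at 0.22 and 0.53 on the female arrays and at -0.54 and -0.49 on the male arrays (difference 0.89 ± 0.09, adjusted p = 0.00677). Spc24 was at -1.0 and -0.89 in females and at 0.10 and 0.21 in males (difference -1.10 ± 0.14, adjusted p = 0.04997). Neither was called when the sham arrays were left out of the fit. The same held without the same-numbered array of both comparisons, which leaves 1 array a side. Ctse, at 0.71 and -0.84 on the male arrays, did not pass (difference 2.51 ± 0.50, adjusted p = 0.141), nor did Mt2 (1.80 ± 0.57, 0.269) or Socs2 (0.74 ± 0.55, 0.674). Skeletal muscle markers were high on array 1 of the male comparison, with the muscle actin Acta1 at 3.82 there and -0.22 on array 2, where the female arrays had -0.28 and -0.11. The 13 muscle markers tested had a median of 1.52 in males. For Tmpo, and likewise for Spc24, the ratio on male array 1 was close to that on male array 2. Whether muscle RNA had a part in the differences between the sexes was not tested.

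**Figure D5:**
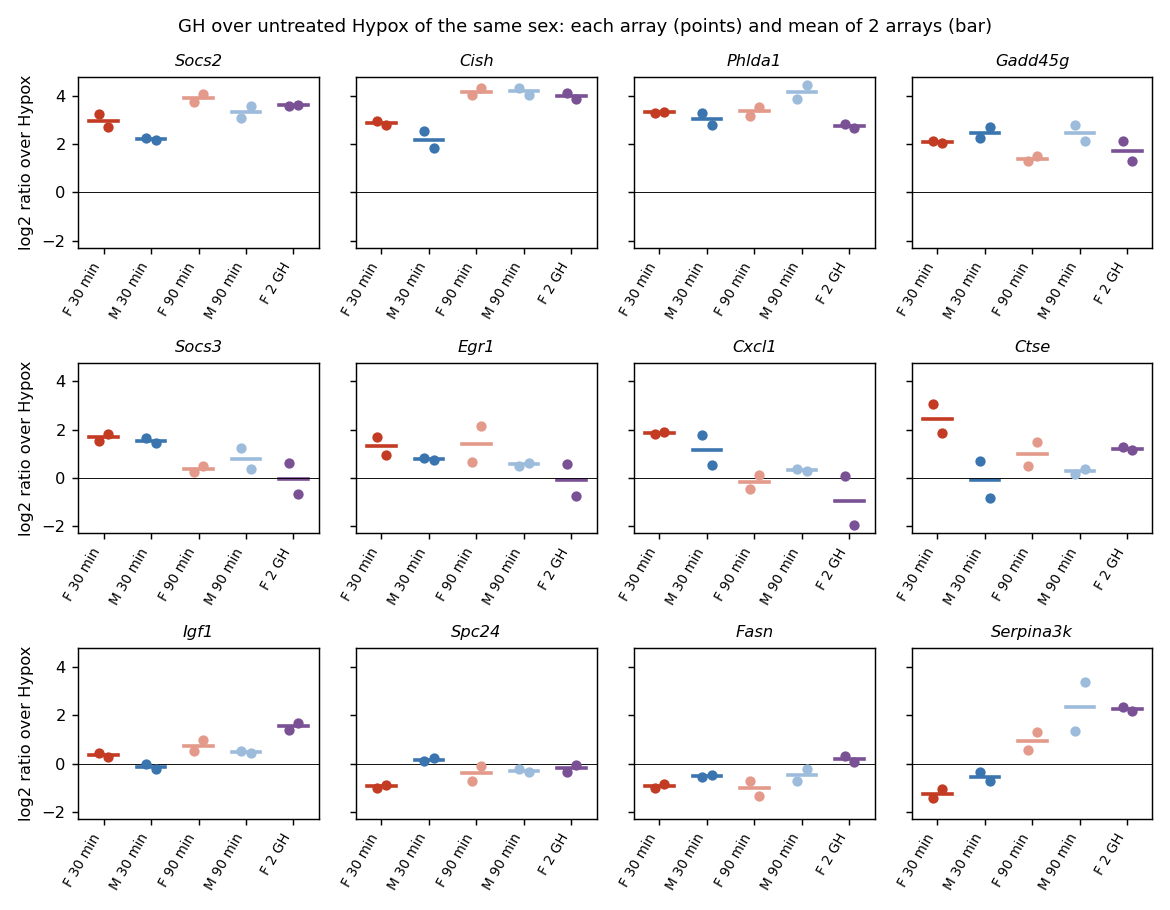
Log2 ratio over untreated Hypox mice of the same sex for 12 genes at 30 min (F, M), at 90 min (F, M) and 30 min after the last of 2 injections (F 2 GH), with each array as a point and the mean as a bar. Socs2 and Cish are high in all 5 comparisons, Socs3 and Cxcl1 are highest at 30 min, and Igf1 is highest after 2 injections.

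limma called 829 genes (3.17%) at 90 min after 1 injection of GH and 2208 (8.43%) at 30 min after the last of 2 injections given 4 hours apart. At 90 min, a comparison that also uses untreated Hypox females and may share their mice, the early genes followed separate courses. Socs2 was at 2.97 at 30 min and 3.89 at 90 min, Cish at 2.88 and 4.17, and Phlda1 at 3.31 and 3.36. Socs3 was at 1.68 and 0.38, Cxcl1 at 1.85 and -0.15, Gadd45g at 2.08 and 1.396, and Myc at 0.63 and 2.97. None of these differences passed the test (adjusted p between 0.373 for Myc and 1.00 for Phlda1). Serpina3k was at -1.25 at 30 min, 0.92 at 90 min and 2.27 after 2 injections (30 minus 90 min -2.17 ± 0.41, adjusted p = 0.0859), and Igf1 at 0.36, 0.73 and 1.53. The comparison after 2 injections is labelled as against female Hypox mice, whereas the design text names male ones. Fasn stood at -0.93, -1.03 and 0.20.

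The difference between 30 and 90 min passed for 40 genes (0.153%), 3 with a higher ratio at 30 min and 37 with a lower one, and 2186 had an unadjusted p under 0.05. Of the 5 largest with a symbol and a lower ratio at 30 min, 4 lay near 0 at that time. Nrep, a neuronal regeneration protein, was at -0.10 and -0.04 at 30 min and at 2.48 and 2.70 at 90 min (difference -2.66 ± 0.34, adjusted p = 0.0104). Fzd7, a Wnt receptor, was at 0.36 and 0.25 and then at 1.87 and 1.67 (-1.47 ± 0.18, adjusted p = 0.0104). Nceh1, a cholesterol ester hydrolase, was at 0.28 and 0.13 and then at 1.26 and 2.06 (-1.45 ± 0.22, adjusted p = 0.0236), and Sybu, which links cargo to kinesin, at -0.09 and 0.35 and then at 1.36 and 1.83 (-1.47 ± 0.24, adjusted p = 0.0343). Nmrk1, a kinase of NAD synthesis, was below 0 first, at -0.96 and -0.54, and then at 0.53 and 1.32 (-1.67 ± 0.21, adjusted p = 0.0104). Zkscan1, a zinc finger protein, was the only gene with a symbol that had a higher ratio at 30 min (-0.09 and -0.03, then -0.47 and -0.67; difference 0.52 ± 0.08, adjusted p = 0.0287). Leaving out the same-numbered array of both comparisons left 1 array a side, and most or all of the 40 calls were lost.

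The female response at 30 min could also be pieced together from 6 other arrays, as GH over Hypox in males, plus Hypox males over females, minus GH-treated males over females, although the RNA pools may be the same. By that route Socs2 was at 3.01 ± 0.67, Phlda1 at 2.87 ± 0.86, Cish at 2.64 ± 1.17, Ctse at 2.12 ± 0.61, Gadd45g at 1.70 ± 1.02 and Socs3 at 1.31 ± 1.099. Of the lower genes, Fasn was at -0.97 ± 0.28, Serpina3k at -1.28 ± 0.50 and Spc24 at -0.76 ± 0.17. All of these lay on the same side of 0 as their direct values. Others lay farther off: Xlr3c was at 0.25, Xlr4b at -0.02, Mt2 at 0.72 and Sppl2a at -0.43, against direct means of 1.86, 1.66, 1.65 and -1.52. With errors summed over 3 comparisons, limma called none of 26190 genes by this route, and 1607 had an unadjusted p under 0.05.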

How the data were processed

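Liver RNA of pooled mice was hybridised to 2-colour Agilent arrays and scanned with Feature Extraction 9.5.1.1 or 9.5.3.1, per the file headers. The deposited scanner files give each spot's intensity on a linear scale in both channels and the scanner's log10 ratio of red over green. The deposited value table holds log2 ratios, which equal the scanner's ratio to within rounding. For this pair of arrays the table carries the values under the other replicate number, and the scanner files' numbering was used. Library preparation beyond amplification and dye coupling is not given in the sources used here.

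Intensities were background-corrected (normexp, offset 50) and normalized within arrays by loess in limma 3.58.1 (R 4.3.3), without weight on 1639 control spots. Ratios were oriented as GH over Hypox by the dyes in the labels. Of 41174 probes, 22072 matched a RefSeq symbol. The brightest probe stood for each of 33767 gene names, and 26191 were tested, those whose signal passed the scanner's test of being well above background, in either channel, on both arrays of some comparison. One model of 22 arrays held 11 comparisons and a dye term, with 10 residual degrees of freedom, and contrasts of it gave the differences between sexes and times. A 1.5-fold threshold on both arrays served as description. Levels are normalized log2 intensities of each channel. The number of arrays limits the precision, and SEs rest on all arrays, not on the spread of 2. The fit was tested on simulated data.

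Genes named are those called, the 12 highest and 12 lowest by the smaller of both ratios, members of the gene lists described, up to 5 each way in the differences, and a few marked as chosen later. Members of lists that are named near 0 were picked after their values were seen. The experiment and the gene lists were chosen with earlier results of these data known. Alternatives covered ratio, normalization, background, filter, probe, samples, model, dye, slide, scan day and replicate. Replicate numbers were not shown to pair arrays. The other comparisons of the series were used only beside these values. Some members of the lists are not reported here.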

Additional observations from a re-analysis of the deposited data

Results flagged for a closer look

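The response at 30 min differed from another comparison by a test of the difference itself, limma with Benjamini-Hochberg adjustment, for 8 of the genes named. Between females and males the difference was 0.89 (log2) for Tmpo and -1.10 for Spc24. Between 30 and 90 min in females it was -2.66 for Nrep, -1.67 for Nmrk1, -1.47 for both Sybu and Fzd7, -1.45 for Nceh1 and 0.52 for Zkscan1. Each difference rests on 2 arrays a side. No alternative reading of them was tested.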

How the results depend on the processing

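The number of genes called for GH over Hypox at 30 min, 5, was 13 with the scanner's log ratio and with the deposited value table, 2 with median centring, 19 without the sham arrays, 109 with only the arrays of the comparison, 163 in a loop model with 1 coefficient per group of mice, and 8 with slide as a random block. Without 1 array it was 0 to 0, with the lone array assumed to vary like the others. It was 5 or 6 under the other alternatives, apart from the replicate blocks described below. The same 5 genes were all called under 12 alternatives, 4 of them without the dye term, 3 without background correction and 2 with median centring. The female minus male count, 2, was 0 with median centring, without the sham arrays and with only the arrays of the comparison. It was 8 without background correction and 458 in the loop model. With offset 10, without a filter on dim probes and without the dye term it was 1. Both calls were lost when the same-numbered array of both comparisons was left out. The 30 minus 90 min count, 40, was 0 with median centring, 74 without background correction and 133 in the loop model. Most or all of these 40 calls were lost when the same-numbered array of both comparisons was left out. The indirect route gave 1 gene in place of 0 without the sham arrays, and the loop model was not run for it. The cause of these shifts was not tested, apart from the smaller number of arrays. None of the 28 genes recomputed under these alternatives reversed its direction, and the other named genes were not recomputed. That adds no support, because these genes have both arrays going the same way and many of the alternatives leave the mean ratio itself unchanged.

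With replicate number as a block the counts were 2 (both among the 5), 5 and 46. Deviations of same-numbered arrays correlated at -0.12 with the male 30 min pair and -0.16 with the female 90 min pair. These values cannot show whether the numbers pair arrays. The fit leaves 1 difference per comparison, and its dye term ties those differences together. Same-numbered arrays of this pair and the female 90 min pair shared a slide. A block with crossed numbers, added after seeing the data, gave 4, 2 and 50 genes.

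The SE of Cish was 0.68 over all arrays and 0.18 without the sham arrays, that of Xlr3c 0.68 and 0.73. Dye, slide and pool cannot be told apart within this pair of arrays.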
